A study of Mus musculus with 4 samples.

Results

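Bidirectional promoters are stretches of DNA from which 2 protein-coding genes are transcribed in opposite directions. They were taken as every pair of autosomal protein-coding genes of GENCODE release M21 (mouse assembly mm10) that lie on opposite strands, with starts that diverge and are 0 to 1000 bp apart. The region of a pair is the span between the 2 starts plus 500 bp on either side. The rule found 735 such pairs, made of 1450 of the 20807 autosomal coding genes (6.97%). In 40 pairs a gene also belonged to another pair, and the 735 pairs cover 733 distinct regions. The distance between the starts had a median of 128 bp (quartiles 66.0 and 240 bp, range 0 to 987 bp). They were set against 18126 single promoters, the 500 bp on either side of the start of a coding gene that has no other coding start within 1 kb. The start of a gene is its outermost annotated end, which is not always the start a cell uses.

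Open chromatin had been mapped by DNase-seq, in which the nuclease DNase I cuts accessible DNA in nuclei and the cut ends are sequenced. The cells were mouse acute myeloid leukemia cells of strain C57BL/6J, which the labels call differentiated in vitro, with no treatment, control, age or sex given. The 4 libraries are 2 technical libraries for each of 2 biological replicates, which share 1 donor in the labels, and the libraries of a replicate were pooled into 1 list of peaks and 1 list of hotspots. No value therefore has a replicate error of its own, no test over samples could be made, and the intervals below (95%, Wilson for shares and order statistics for medians) cover counting error over promoters only.

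Divergent starts are common in mammalian genomes, and genes for DNA repair, mitochondrial proteins and other functions needed in most cells are frequent among them. Their shared stretch is usually a CpG island, DNA rich in unmethylated CpG pairs, and often lacks a TATA box. RNA polymerase is loaded on it in both directions, so 1 nucleosome-free region can serve the starts of both genes.

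The replicate 1 list held 236754 peaks and the replicate 2 list 67559, each peak a window of 150 bp whose start lies on a grid of 20 bp. The deposited score, which ran from 1 up to 150 in replicate 1 and between 2 and 148 in replicate 2, was used only within its own list, because the sources used here give neither its definition nor any scaling for depth. It is compressed at its upper end in replicate 1, where 1839 peaks have a score of 150. Hotspots are wider regions, 202621 in replicate 1 and 61915 in replicate 2. A peak found in both lists, by an overlap of at least 1 bp, is called shared, and a promoter with the centre of a shared peak in its region is called open. As a rough check of the labelled cell type, 6 of 8 myeloid markers were open at their annotated start, against 47.5% of all pairs and single promoters. A replicate 1 peak lay at 7 of the 8, against 60.6%. The open ones were Cebpa, Cebpe, Csf3r, Mpo, Itgam and Ptprc, while Spi1 and Csf1r were not open there. None of 4 T cell, 3 B cell, 3 erythroid, 3 hepatocyte, 3 epithelial and 2 neuron markers was open there, though 1 each of the B cell, erythroid, epithelial and neuron markers had a replicate 1 peak and 1 erythroid marker a replicate 2 peak.

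The DNA between the starts is shown for 7 pairs, on the plus strand from 5′ to 3′, so that the gene named first reads leftward from the left end and the gene named second rightward from the right end. The first 4 are textbook pairs that were open, the next 2 are among the 5 pairs with the strongest shared peaks, and the last is a textbook pair without a peak. Capitals mark exact matches to the motifs listed further on. Sequences are from RefSeq GRCm38.p6 (mm10).
Mrps12/Sars2: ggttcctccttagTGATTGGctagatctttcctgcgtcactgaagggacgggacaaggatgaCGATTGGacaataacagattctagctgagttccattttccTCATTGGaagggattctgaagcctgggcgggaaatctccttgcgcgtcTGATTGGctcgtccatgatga
Brca1/Nbr1: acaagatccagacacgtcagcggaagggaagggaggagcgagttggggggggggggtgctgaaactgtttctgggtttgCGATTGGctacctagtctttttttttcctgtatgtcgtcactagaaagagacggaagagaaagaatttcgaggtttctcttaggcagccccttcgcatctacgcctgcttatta
Wrap53/Trp53: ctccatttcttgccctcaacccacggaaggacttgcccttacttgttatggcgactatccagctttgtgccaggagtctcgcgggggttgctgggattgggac
Psmb1/Tbp: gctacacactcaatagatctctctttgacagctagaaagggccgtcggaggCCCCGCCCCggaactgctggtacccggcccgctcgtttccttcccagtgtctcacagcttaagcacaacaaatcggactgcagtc
Alyref/Anapc11: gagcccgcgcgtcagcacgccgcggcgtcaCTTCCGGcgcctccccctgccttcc
Prkar1b/Dnaaf5: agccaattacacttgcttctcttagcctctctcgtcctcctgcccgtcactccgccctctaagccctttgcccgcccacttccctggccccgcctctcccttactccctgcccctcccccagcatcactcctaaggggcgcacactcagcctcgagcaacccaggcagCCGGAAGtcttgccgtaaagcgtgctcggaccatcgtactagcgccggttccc
Pinlyp/Xrcc1: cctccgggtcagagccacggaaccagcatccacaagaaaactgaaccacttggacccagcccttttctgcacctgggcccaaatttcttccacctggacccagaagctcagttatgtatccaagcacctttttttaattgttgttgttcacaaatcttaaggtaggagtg

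The span of Mrps12 and Sars2, which encode a protein of the mitochondrial ribosome and the mitochondrial seryl-tRNA synthetase, covers chr7:28741821-28741991. It holds 4 CCAAT boxes, the binding motif of the trimeric factor NF-Y. That of Brca1, a homologous recombination gene, and Nbr1, an autophagy receptor gene, covers chr11:101551956-101552148 and holds 1. The span of Wrap53 and Trp53 (chr11:69580256-69580358) holds none of the searched motifs. That of the proteasome subunit gene Psmb1 and the TATA-binding protein gene Tbp (chr17:15499752-15499887) holds 1 GC box, the motif of SP and KLF factors. Those of Alyref and Anapc11 (chr11:120598366-120598420) and of Prkar1b and Dnaaf5 (chr5:139150002-139150222) each hold 1 ETS motif. The span of Pinlyp and Xrcc1 (chr7:24546119-24546288) is the CpG-poorest of the 7, with a CpG observed/expected ratio of 0.210 against 0.490 to 1.18 in the others.

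Nearly all pairs were open in these cells. A replicate 1 peak lay in 705 of 735 pairs (95.9%, interval 94.2 to 97.1%), where 60.6% of all promoters tested, pairs and single ones together, had one. A replicate 2 peak lay in 691 pairs (94.0%, 92.1 to 95.5%), against 48.2% of all promoters. The peak was shared in 689 pairs (93.7%, 91.8 to 95.3%), against 47.5% of all promoters. Single promoters alone had a shared peak in 8266 of 18126 cases (45.6%, 44.9 to 46.3%), so the pairs were ahead by 48.1 percentage points. The regions of the pairs are longer by the distance between the starts, but with every region cut to 500 bp on either side of its midpoint the share of open pairs was 93.2%. With the replicate 1 list alone the distance was 36.8 points.

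Single promoters with a noncoding partner were open more often than those with none. Of the single promoters, 783 had a noncoding gene head to head within 1 kb, and 581 of these were open (74.2%, 71.0 to 77.1%). Of the 17343 with no partner, 7685 were open (44.3%, 43.6 to 45.1%). The pairs stood above both classes, and the 3 intervals did not overlap.

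CpG content differed between the classes. The median CpG observed/expected ratio in 1 kb around the promoter was 0.778 in pairs, 0.768 in single promoters with a noncoding partner and 0.478 in those without. GC content was 60.2%, 60.4% and 53.9%. Within the same range of CpG ratio the gap to single promoters without a partner was smaller and remained above 0. At a ratio of 0.8 and above, 319 of 323 pairs were open (98.8%, 96.9 to 99.5%), 88.2% of single promoters with a noncoding partner and 86.3% (85.1 to 87.5%) of those without. From 0.6 to 0.8 the shares were 96.7%, 83.3% and 75.7%, and from 0.4 to 0.6 they were 86.8%, 64.1% and 49.1%. Under 0.4, 8 of 30 pairs were open (26.7%, 14.2 to 44.4%) against 15% (9.42 to 22.9%) of single promoters with a noncoding partner and 9.99% of those without. When single promoters were weighted to the CpG classes of the pairs, 75.3% were open, which leaves a distance of 18.5 points in place of 48.1.

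**Figure D1:**
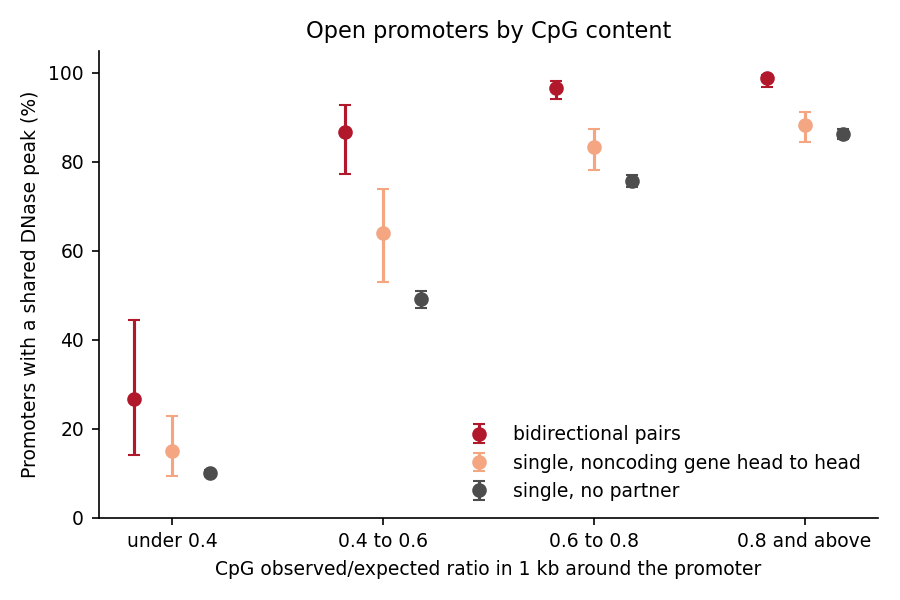
Share of promoters with a shared DNase peak (vertical axis, %) in 4 classes of the CpG observed/expected ratio (horizontal axis). Points are shares of bidirectional pairs, single promoters with a noncoding gene head to head and single promoters with no partner, and bars are 95% Wilson intervals. The pairs sit highest in each class, from 26.7% under a ratio of 0.4 to 98.8% at 0.8 and above, and in the lowest class their interval overlaps that of single promoters with a noncoding partner.

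The peaks of the pairs ranked near the top of both lists. Where a pair had a peak, its strongest had a median score of 148 in replicate 1 (quartiles 145 and 150) and 88.0 in replicate 2 (quartiles 77.0 and 96.0). Single promoters with a peak had medians of 140 (105 and 147) and 73.0 (50 and 88). As a percentile within its own list the median was 98.1 in pairs against 93.3 in single promoters for replicate 1, a difference of 4.71, and 95.0 against 88.6 for replicate 2, a difference of 6.40. In replicate 1, 667 of the 705 pairs with a peak (94.6%) were in the strongest 10% of the list, against 58.8% of single promoters with one. In replicate 2 the shares were 76.4% and 45.7%. Single promoters with a noncoding partner were nearer to the pairs, with median percentiles of 96.7 (96.1 to 97.4) in replicate 1 and 93.0 (91.7 to 93.8) in replicate 2, and with 77.9% and 59.9% in the strongest 10%. The intervals of the medians did not overlap those of the pairs, which were 98.1 at both ends in replicate 1 and 94.2 to 95.4 in replicate 2. The differences in percentile were 2.57 and 4.19 with single promoters weighted by CpG class, and 3.14 and 4.19 when only peaks at or above the median score of their list were used.

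**Figure D2:**
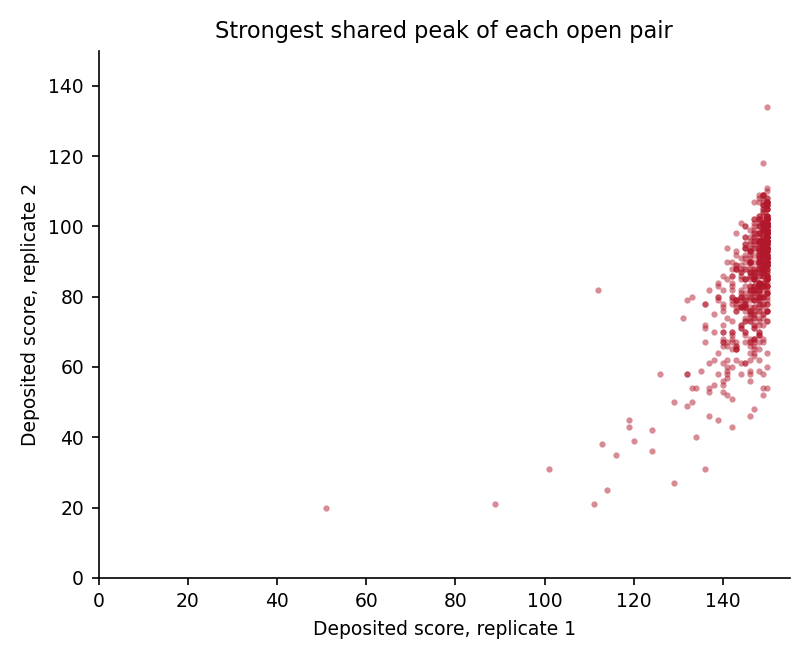
Deposited score of the strongest shared peak of each of the 689 open pairs in replicate 1 (horizontal axis) and replicate 2 (vertical axis), 1 point per pair. Points crowd toward the upper limit of 150 in replicate 1, with 178 pairs at it, while replicate 2 scores reach from 20 to 134.

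The strongest pair was Hjurp, the chaperone that loads the centromeric histone CENP-A, with Trpm8, a cold-sensing ion channel of sensory neurons. Its starts are 28 bp apart, and the shared peak scored 150 in replicate 1 and 134 in replicate 2. The others of the 5 strongest had 150 in replicate 1. In replicate 2, Alyref/Anapc11 had 111, Prkar1b/Dnaaf5 110, and Mms19/Ubtd1 and Tom1l2/Drc3 108 each. Alyref encodes an mRNA export adaptor, Anapc11 a subunit of the anaphase-promoting complex, and Mms19 a factor that delivers iron-sulfur clusters to DNA repair enzymes. At the other end, the weakest shared peak was that of Stap2/Mpnd, with 51 in replicate 1 and 20 in replicate 2, a pair named after its values were seen. Scores of the strongest shared peak had a Spearman rho of 0.615 between the lists over the 689 open pairs and 0.854 over 8266 open single promoters, which span a wider range of scores. Promoters of 1 list share its library and depth, so these values are descriptions.

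Of the 8 textbook pairs, 7 were open. Atm, the kinase of the response to DNA double-strand breaks, and Npat, the coactivator of histone genes, have starts 307 bp apart, and their peak scored 150 and 106. Brca1/Nbr1 scored 150 and 93, Mrps12/Sars2 150 and 81, and Mcm4/Prkdc, a subunit of the replicative helicase and the DNA-dependent protein kinase, 149 and 83. Psmb1/Tbp scored 148 and 90, and Wrap53/Trp53, where Wrap53 encodes a protein needed for telomerase trafficking and Trp53 the tumour suppressor p53, scored 148 and 65. Emc3/Fancd2, an endoplasmic reticulum insertase subunit and a Fanconi anemia protein, scored 145 and 79. In each of these 7 pairs 1 hotspot covered both starts in both lists. Pinlyp/Xrcc1 had no peak in either list. The annotated start used for Xrcc1, a scaffold of single-strand break repair, is that of its outermost transcript, and another annotated start of the gene, 861 bp away, was open, with a shared peak within 500 bp. Hotspots of 1651 bp in replicate 1 and 604 bp in replicate 2 overlapped the region but did not cover both starts.

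The hotspots over the pairs were wide. A replicate 1 hotspot overlapped 710 of 735 pairs (96.6%, against 62.3% of all promoters tested) and a replicate 2 hotspot 692 (94.1%, against 49.2%). The widest at each pair had a median of 1708 bp in replicate 1 (1656 to 1752 bp) and 856 bp in replicate 2 (826 to 890 bp). Single promoters with a hotspot had 1268 bp (1250 to 1285 bp) and 619 bp (608 to 629 bp), which leaves differences of 440 bp and 238 bp. Single promoters with a noncoding partner were closer to the pairs, with medians of 1595 bp (1514 to 1651 bp) and 758 bp (713 to 791 bp). At a CpG ratio of 0.8 and above the replicate 1 medians were 1812 bp (1739 to 1912 bp) in pairs and 1793 bp (1671 to 1868 bp) in that class, with overlapping intervals, and those of replicate 2 were 937 bp (890 to 984 bp) and 838 bp (793 to 889 bp). Weighted to the CpG classes of the pairs, all single promoters left differences of 261 bp and 172 bp. With the hotspot over the centre of the strongest shared peak in place of the widest one, the differences were 292 bp and 237 bp. A single hotspot covered both starts in 670 pairs (91.2%) in replicate 1 and in 625 pairs (85.0%) in replicate 2.

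Where they covered the starts, the hotspots reached about as far into each gene of a pair as into a single gene. At single promoters without a partner they reached less far upstream than downstream. The reach was measured only where the widest hotspot covered both starts of a pair (659 pairs in replicate 1, 620 in replicate 2) or the start of a single promoter. Other promoters are left out, and the condition is stricter for pairs. In replicate 1 the widest hotspot reached a median of 765 bp from each start into its gene (1318 starts), close to the 789 bp that it reached downstream at single promoters (9365 starts). Upstream, away from the gene, it reached 516 bp at single promoters. In replicate 2 the reach was 349 bp into each gene of a pair, 342 bp downstream at single promoters and 282 bp upstream. Single promoters with a noncoding partner reached 688 bp upstream in replicate 1 and 380 bp in replicate 2, more than those without, at 506 and 275 bp. Into the gene they reached 865 and 353 bp, so in replicate 2 their upstream reach was the longer one. The 2 arms of a pair were not equal. The longer one had a median of 949 bp and the shorter 606 bp in replicate 1, and 459 bp and 261 bp in replicate 2, where the order was set by the values themselves. The plus-strand arm exceeded the minus-strand arm by a median of 25 bp in replicate 1 and 9 bp in replicate 2.

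**Figure D3:**
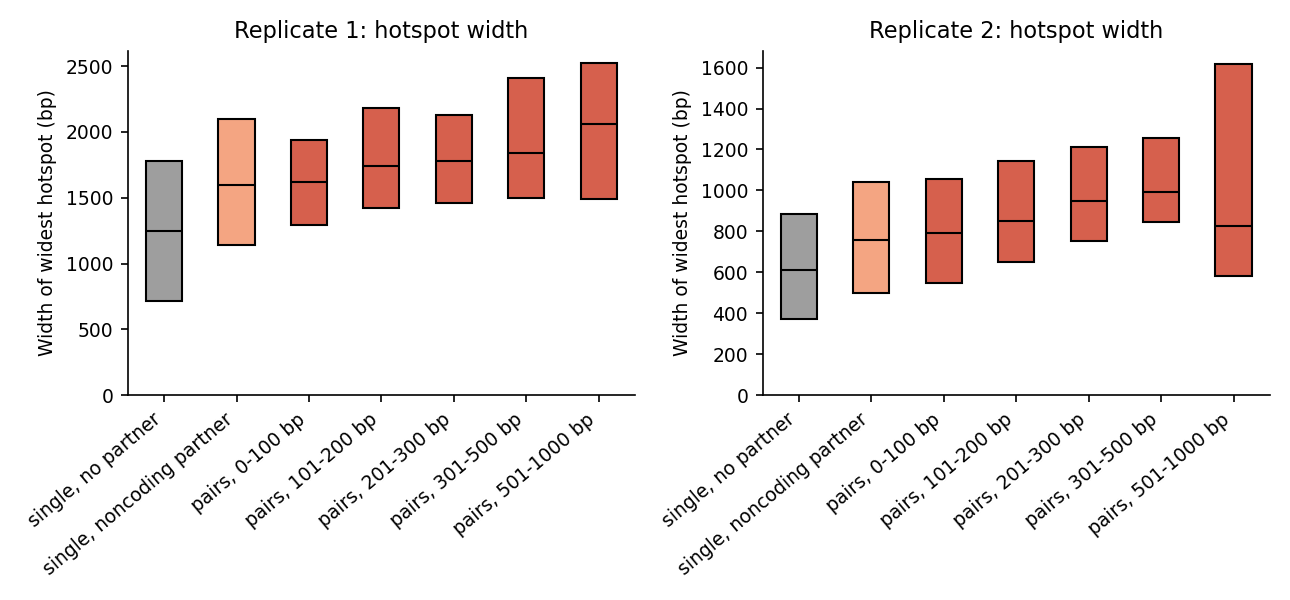
Width of the widest hotspot at a promoter (vertical axis, bp) in replicate 1 (left) and replicate 2 (right) for single promoters with no partner, single promoters with a noncoding partner, and pairs by the distance between their starts. Boxes run from the lower to the upper quartile with the median as a line, and the vertical scales differ between the panels. In replicate 1 the median goes from 1245 bp in single promoters without a partner to 2057 bp in the most distant pairs, and in replicate 2 the most distant pairs, at 824 bp, are below the class before them, at 992 bp.

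The widest hotspots of replicate 2 lay at Dcaf6/Mpc2 (2676 bp, and 3147 bp in replicate 1), Utp18/Mbtd1 (2540 and 3236 bp), Zfp91/Lpxn (2477 and 3022 bp), Hnrnpa2b1/Cbx3 (2446 and 3121 bp) and Hnrnpdl/Enoph1 (2418 and 2896 bp). Mpc2 encodes a subunit of the mitochondrial pyruvate carrier. Lpxn encodes leupaxin, a focal adhesion adaptor known from blood cells. The region between Hnrnpa2b1, an RNA-binding protein gene, and Cbx3, the gene of a heterochromatin protein, is a long-known CpG island with divergent transcription. The Spearman rho of hotspot width between the lists was 0.557 over 692 pairs and 0.576 over 8577 single promoters.

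The strongest peak lay mostly between the starts. In 416 of the 689 open pairs (60.4%, 56.7 to 64.0%) the centre of the strongest shared peak was between the 2 starts, a span that takes 14.2% of the length of the region on average. In 138 pairs it was inside the minus-strand gene and in 135 inside the plus-strand gene. The centre was a median of 45.0 bp from the midpoint, in steps set by the grid of 20 bp. At single promoters the strongest shared peak was upstream of the start in 61.3% of 8266, with a median offset of -22.0 bp, and in 74.4% of the 581 with a noncoding partner. A centre between the starts of a pair is upstream of both by construction, so these shares are not set against that of the pairs.

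**Figure D4:**
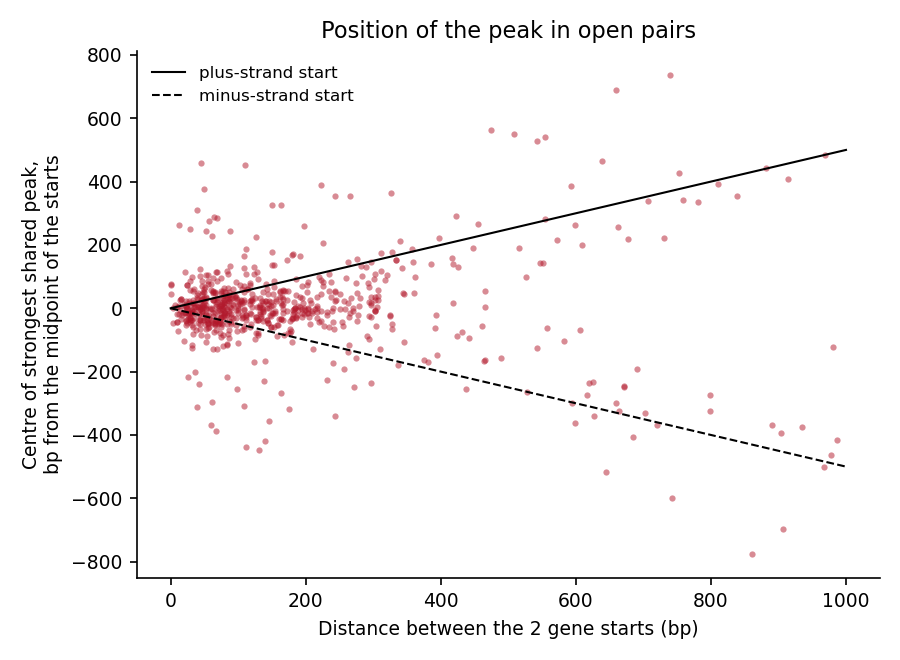
Centre of the strongest shared peak relative to the midpoint of the 2 starts (vertical axis, bp) against the distance between the starts (horizontal axis, bp), 1 point per open pair. The solid line is the plus-strand start and the broken line the minus-strand start. Points gather around the midpoint up to about 300 bp and split toward either start beyond 500 bp.

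The arrangement of the peaks differed with the distance between the starts. Up to 100 bp apart, 295 of 307 pairs were open (96.1%), and the centre of the peak, which is itself wider than such a span, lay between the starts in 40%. In pairs over 100 and up to 200 bp apart it lay there in 72.7%, and over 200 and up to 300 bp in 83.7%. For distances over 300 and up to 500 bp the share was 81.7%, and over 500 bp it was 66.1%. The span between the starts took 5.31, 12.8, 19.8, 26.8 and 41.0% of the region on average, from the closest to the most distant class. The spacing itself therefore shapes these shares. The median distance of the centre from the midpoint was 36.0, 34.5 and 43.5 bp in the 3 closest classes, 106 bp in the fourth and 336 bp in the most distant. Only 3.39% of the most distant open pairs had the centre within 75 bp of the midpoint, against 80.0% of the closest. In the closest pairs both starts lie within 75 bp of the midpoint and in the most distant neither does, so the spacing itself shapes this contrast.

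In the closest class 273 of 307 pairs (88.9%) had a shared peak within 150 bp of both starts. With starts this close, a peak near 1 of them is mostly near the other as well. In 3 of these pairs the surroundings of the 2 starts held more than 1 shared peak between them. Among the 68 pairs over 500 bp apart, 18 had a shared peak within 150 bp of each start, which at this distance are separate peaks. Another 15 had one near the minus-strand start alone, 18 near the plus-strand start alone and 17 near neither. The mean number of replicate 1 peaks in a pair with a peak was 1.45, 1.52, 1.68, 1.81 and 2.34 from the closest to the most distant class, in regions that are also longer. In replicate 2, a hotspot covered both starts in 94.8% of the closest pairs and in 36.8% of the most distant. In replicate 1 the shares were 95.8% and 73.5%. A hotspot has to be longer to cover starts farther apart, so the spacing itself shapes this contrast too. The most distant pairs were also the CpG-poorest class, with a median ratio of 0.630 against 0.781 to 0.806 in the others, and 59 of 68 were open (86.8%, 76.7 to 92.9%).

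The closest pairs with a shared peak were Nsa2/Gfm2, whose starts are at the same base (scores 148 and 69), Bag4/Lsm1 (149 and 94) and Slc7a6os/Prmt7 (149 and 109), with starts 1 bp apart in both. The 2 most distant were Btf3l4/Txndc12 at 987 bp (148 and 90) and Asphd1/Sez6l2 at 981 bp (140 and 70). Just beyond the limit of the rule, Gpr108/Trip10 at 1009 bp scored 147 and 96, Sgsm2/Tsr1 at 1011 bp 147 and 80, and Dirc2/Hspbap1 at 1019 bp 146 and 75. At Asphd1/Sez6l2 the hotspot was 1760 bp wide in replicate 1 and covered both starts, while that of replicate 2 was 576 bp wide and did not.

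The genes of the pairs were grouped by name into 12 lists, and a pair counted where either gene matched. These lists overlap, and their counts are descriptions to be read against 93.7% of all pairs. All 21 pairs with a gene for the mitochondrial ribosome or mitochondrial translation were open, as were all 27 with a gene for the respiratory chain or mitochondrial import. Of 44 pairs with a gene of DNA replication or repair, 43 were open, with Pinlyp/Xrcc1 the exception. The counts were 35 of 36 for RNA splicing and processing, 25 of 26 for RNA polymerases and general transcription factors, 27 of 28 for proteasome and ubiquitin genes, 22 of 24 for zinc finger proteins and 8 of 9 for cytosolic ribosomal proteins.

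The pairs named next were chosen as the strongest of their lists, so their high scores follow from that choice. Polk/Col4a3bp, with the translesion DNA polymerase kappa, scored 150 and 102. Mrpl41/Pnpla7 scored 149 and 106, and Rps28/Ndufa7, with a protein of the small ribosomal subunit and a subunit of respiratory complex I, 149 and 96. Wdr4/Ndufv3, a tRNA methyltransferase subunit and a respiratory complex I subunit, scored 150 and 107. Qpctl/Snrpd2, with a core protein of the spliceosomal small nuclear ribonucleoproteins, and Ttc9c/Hnrnpul2 both had 150 and 105. Lnx2/Polr1d, with a subunit of RNA polymerases I and III, had 150 and 100, and Rbbp4/Zbtb8os, with a histone-binding chaperone, 150 and 107. The hotspots of the ribosomal protein pairs were narrower than those of all pairs, with medians of 1189 and 604 bp in replicates 1 and 2 against 1708 and 856 bp.

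Of the 7 pairs of these lists that were not open, 4 had a CpG ratio under 0.4. One is Pinlyp/Xrcc1, described above. Rnf151/Rps2, where Rps2 encodes a protein of the small ribosomal subunit, had no peak and a CpG ratio of 0.162, and another annotated start of Rps2, 1947 bp away, was open. Zfp558/Mbd3l1 had no peak and a ratio of 0.111, with an open start of Zfp558 4709 bp away. Ccnt1/4930415O20Rik, where Ccnt1 encodes cyclin T1 of the elongation factor P-TEFb, had a ratio of 0.212, with 1 peak in replicate 1 (score 126) and none in replicate 2. An open start of Ccnt1 lay 3243 bp away. The other 3 had higher ratios. Ddx25/Pus3, at 0.744, had a peak in each list (scores 71 and 26) that did not overlap, and an open start of Pus3 lay 865 bp away. Grik5/Zfp574, at 0.415, had 1 peak in replicate 1 alone (score 69), and an open start of Zfp574 lay 4638 bp away. Peg3/Usp29, at 0.60, had no peak in either list and no other open start. Usp29 encodes a ubiquitin-specific protease, and both genes are imprinted and expressed from the paternal copy. A replicate 1 hotspot of 705 bp reached into the region without covering both starts.

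The replication-dependent histone genes stood in 14 pairs, most of them an H2A and an H2B gene back to back, and 11 were open. Their CpG ratio was high, with a median of 0.937, but the hotspots over their peaks were narrow. The hotspot that held the centre of the strongest shared peak had a median width of 297 bp in replicate 1 (range 162 to 1272 bp) and 278 bp in replicate 2 (162 to 482 bp), against 1723 bp and 856 bp for all open pairs. In replicate 1 the widest hotspot of the region lay elsewhere in 9 of the 11 open histone pairs, against 23 of all 689 open pairs. In 9 of the 11 the hotspot over the peak had the same first and last base in both lists, which held for 2 of the 678 open pairs outside this list. These 2 were chosen after their values were seen, and are Mfsd8/Abhd18 and 2700097O09Rik/Srp54a. Hist1h2bf/Hist1h2ad scored 149 and 80 and Hist1h2ag/Hist1h2bj 146 and 83. In neither did the hotspots cover both starts. The 3 pairs without a peak were Hist1h2bq/Hist1h2ao, Hist1h2ap/Hist1h2br and Hist1h2ba/Hist1h2aa. Histone genes have near-identical copies, so the absence of a peak there is uncertain, since reads that match several copies could have been left out and the sources used here do not say how such reads were treated.

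Pairs with a gene matched by name as immune or myeloid were open in 10 of 13 cases, and their CpG ratio was low, with a median of 0.525. The name patterns miss other genes of this kind, as in the open pairs Pus7l/Irak4, Pecam1/Milr1 and Lrrc63/Lcp1. The count is therefore no share for immune genes as a class. Tnfaip1/Ift20 scored 150 and 85. H2-T22/Gm6034, a pair with a nonclassical MHC class I gene, scored 148 and 59. The 3 genes of this list without a peak at the pair were Cd8b1, the T cell co-receptor chain (with Smyd1), Il11 (with Tmem190) and Trim28 (with Slc27a5). Trim28 encodes the corepressor of zinc finger proteins, and an open annotated start of it lay 25038 bp from the start used. Pairs with a gene of a tissue-restricted family were open in 6 of 10 cases. In the open ones the other gene is outside these families, as in Cdc27/Myl4 (150 and 103), where Cdc27 encodes a subunit of the anaphase-promoting complex and Myl4 an atrial myosin light chain, and Pdcd10/Serpini1 (150 and 100), with a gene of vascular integrity beside that of neuroserpin. Other such pairs are Foxa3/Sympk (150 and 80), with a liver transcription factor and a protein of mRNA 3′ end formation, and Tas1r1/Nol9 (144 and 77), with a taste receptor and a kinase of ribosomal RNA processing. These last 2 were chosen after their values were seen. A partner outside the families was not particular to the open pairs, since Grik5/Zfp574, which was not open, has one too.

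The pairs that were not open numbered 46. Of these, 30 had no peak in either list, 14 had a peak in replicate 1 alone, 2 had peaks in both lists that did not overlap, and none had a peak in replicate 2 alone. The 30 without a peak had a median CpG ratio of 0.323 against 0.784 in open pairs, and 19 of them were under 0.4. Among those named by the rule is Col4a4/Col4a3, the collagen chains of the basement membrane in the kidney glomerulus, with starts 72 bp apart. Others were Best1/Rab3il1, with the chloride channel bestrophin of the retinal pigment epithelium, Bhmt2/Dmgdh, which encode enzymes of methyl group metabolism in liver and kidney, and Dgcr2/Tssk2, with a testis-specific kinase. The rest were Aspa/Spata22 and Aspa/Gm49340, which share the region of the aspartoacylase gene, Fam217a/4933417A18Rik, Gm12355/Gsdma3, Gm20075/Gm17190 and 4930430F08Rik/1700017N19Rik. In 20 of the 46 pairs, and in 14 of the 30 without a peak, another annotated start of either gene was open, as at Best1 (8718 bp away), Rab3il1 (16524 bp), Dgcr2 (6869 bp) and Aspa (2789 bp). Any annotated start more than 500 bp away counted, even as far as 328371 bp at Dst. Open pairs were not counted in this way, so these counts do not set the 46 pairs apart.

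Among the pairs with a peak in replicate 1 alone, Gm49661/Prdx2 had the highest score, at 131, with 2 peaks and a hotspot of 1057 bp. Prdx2 encodes a peroxidase abundant in red blood cells. Zcchc3/6820408C15Rik followed Ccnt1/4930415O20Rik with 118. The replicate 1 list is the longer of the 2, and in a list of the strongest replicate 1 peaks as long as that of replicate 2 the share of pairs with a shared peak was 93.5%. The second pair with non-overlapping peaks was Surf4/Stkld1, where the peaks scored 150 and 93.

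The most replicate 1 peaks in a region were 5, at 2700097O09Rik/Srp54a, Fiz1/Gm44973 and H2-T22/Gm6034. Another 18 pairs had 4, of which Asphd1/Sez6l2 and Bola1/Hist2h2ab come first in alphabetical order. At 2700097O09Rik/Srp54a, with the gene of a signal recognition particle protein, and at H2-T22/Gm6034 the widest hotspot of replicate 1 was narrow, at 262 and 264 bp, while Fiz1/Gm44973 had 2453 bp. Srp54a, H2-T22 and the histone genes belong to families with close copies, where reads cannot always be placed. Whether that bears on these hotspot widths was not tested.

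Short sequence motifs of promoters were counted in windows of 300 bp, 250 before to 50 after each start, as exact matches on either strand. The motifs were CCGGAAG (ETS factors of the GABPA type), GCGCATGCG or GCGCACGCG (NRF1), CCAAT completed by CA, CG, GA or GG (CCAAT box), GGGGCGGGG (GC box), AAGATGGCG (YY1), TCTCGCGAG (ZBTB33 type), TGACGTCA (CRE), CACGTG (E-box), GAGGAAGT (PU.1 type), TGTGGTT (RUNX), TTGCGCAA, TTACGCAA or TTGCACAA (C/EBP) and CTCF. TATAAA was counted only from 40 to 20 bp before the start, on the strand of the gene. No spelled-out motif contains another, but matches may overlap on the DNA. The windows of both genes of a close pair share bases, so a match in the shared bases counts at both starts. Such a window also reaches past the start of the partner gene, so motifs of the partner can raise the shares of pairs.

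The ETS motif was in 27.6% of the 1450 starts of pairs and in 9.20% of the 18126 single starts, with 10.6% over both kinds. Among open promoters with a CpG ratio of 0.6 or more the shares were 29.9% (27.4 to 32.5%) and 19.1% (18.1 to 20.1%). The windows searched in these 2 sets still differed, with median CpG ratios of 0.892 in pairs and 0.822 in single starts. Their median GC content was 63.7% and 62.3%. On the same basis the CCAAT box was in 31.7% of the starts of pairs and 24.4% of single starts, NRF1 in 12.8% and 9.18%, YY1 in 5.86% and 2.98%, and the ZBTB33-type motif in 3.05% and 1.76%. The intervals of the classes did not overlap for these 5 motifs. They treat the 2 starts of a pair as independent, though 1 match can count at both. Those of the pairs are therefore too narrow, and the lack of overlap is no measure of a difference. The shares of pairs themselves can be raised too, since a window often takes in the start of the partner gene. For YY1, matches counted at 79 starts of pairs came from 51 pairs. The GC box was in 24.2% (21.8 to 26.7%) and 27.2% (26.1 to 28.3%), the CRE in 5.03% and 4.32% and the E-box in 12.1% and 11.7%, each with overlapping intervals. Over all starts tested, the CCAAT box was in 18.9%, the GC box in 14.7%, the E-box in 7.79%, NRF1 in 4.32%, the CRE in 2.40%, YY1 in 1.62% and the ZBTB33-type motif in 0.863%.

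Motifs of blood-cell factors had few exact matches in both kinds of start. The motifs differ in length and number of spellings, so their shares are not ranked against those of the other motifs. Among open promoters with a CpG ratio of 0.6 or more, the PU.1-type motif was in 2.97% of the starts of pairs (2.15 to 4.08%) and 2.54% of single starts (2.18 to 2.97%). On that basis C/EBP was in 1.49% (0.941 to 2.34%) and 1.19% (0.95 to 1.49%), and RUNX in 1.98% (1.33 to 2.93%) and 3.33% (2.92 to 3.81%), each with overlapping intervals. Without that restriction the order of the first 2 turned, with PU.1 in 2.69% of the starts of pairs and 3.39% of single starts and C/EBP in 1.31% and 1.36%, while RUNX was in 2.28% and 5.49%. Over all starts these were in 3.34%, 1.36% and 5.26%. CTCF was in 4 starts of pairs (0.276%) against 0.596% of single starts and 0.572% of all. The TATA box was in 3 of 1450 starts of pairs (0.207%, 0.0704 to 0.607%), in 2.58% of single starts and in 2.40% of all. Among open promoters with a CpG ratio of 0.6 or more it was in 0.165% and 0.709%, with overlapping intervals.

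**Figure D5:**
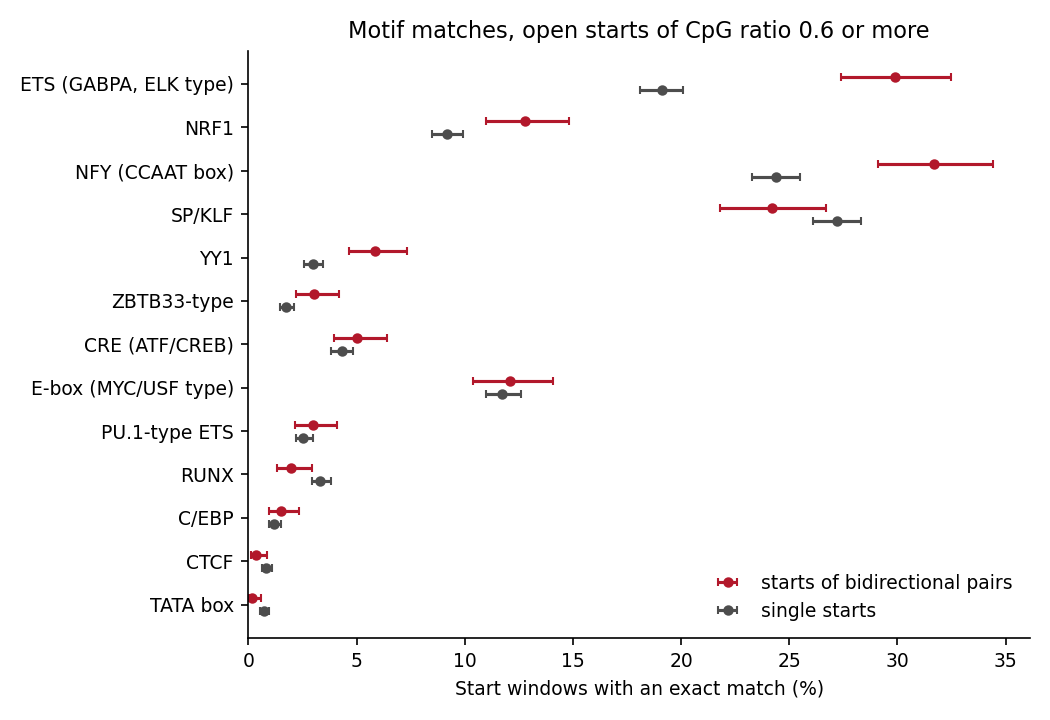
Share of start windows with an exact motif match (horizontal axis, %) for starts of bidirectional pairs and single starts, among open promoters with a CpG ratio of 0.6 or more. Points are shares and bars are 95% Wilson intervals. The window of a start in a close pair also reaches past the start of its partner, which can raise the shares of pairs. The ETS motif (29.9% against 19.1%) and the CCAAT box (31.7% against 24.4%) show the widest gaps, while the E-box is at 12.1% and 11.7%.

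Within the pairs, the motif matches had different places. A CCAAT box in the window of either start was found in 264 pairs, and in 205 of them a match lay between the starts. For YY1 a match lay between the starts in 5 of 51 pairs, the remainder lying at or beyond a start. For the ETS motif it was 112 of 236. Of the pairs with an ETS motif 235 of 236 were open (99.6%), and of those without one 454 of 499 (91.0%). All 88 pairs with an NRF1 motif were open, and 601 of the 647 without one (92.9%). Pairs with these motifs also had higher median CpG ratios, 0.806 against 0.770 for ETS and 0.826 against 0.770 for NRF1. Whether the shares differ at equal CpG ratio was not tested. The CCAAT box was in open and other pairs alike, with 93.9% of those with it open and 93.6% of those without. The scores were close with and without the motif, since open pairs with an ETS motif had a median shared score of 148 in replicate 1 and 86.0 in replicate 2, and those without 148 and 88.0. In 179 pairs none of the first 6 motifs was found, and 156 of these were open (87.2%), against 95.9% of the 556 pairs with at least 1. A match is a description of the letters and no evidence of binding.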

How the data were processed

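DNase-seq had been run on 4 libraries, 2 for each of 2 biological replicates. The deposited lists are pooled per replicate and were aligned to mm10, per the file headers and the text files that came with the samples. The sources used here give no aligner, peak caller, setting or read number, and depth is unknown. The deposited peak score is a whole number per window of 150 bp, and the deposited hotspots carry a −log10 q value that starts at 1.30 and stops at 100.

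Repeated peak entries (48 and 5) were kept once. Promoters came from GENCODE M21 gene records, and a peak belonged to a region when its centre lay in it. Sequence was read from RefSeq GRCm38.p6, whose chromosome lengths were checked to hold all listed peaks. Python 3.11.15 with numpy 2.4.6, pandas 2.3.3, scipy 1.17.1, statsmodels 0.14.6 and matplotlib 3.10.9 was used, and the search for pairs, overlaps and motifs was tested on simulated data.

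The pairs, the gene lists and the motifs were chosen with earlier results of these data known. Gene lists go by name patterns, which were tightened after the annotation was read. Pairs were named by rule: textbook pairs, the 5 strongest, the 5 with the widest replicate 2 hotspot, the 5 with most replicate 1 peaks, the 3 strongest of replicate 1 alone, up to 10 without a peak in alphabetical order, up to 2 open and 2 other pairs of each gene list, and the 3 closest and 3 most distant. Some pairs that this rule names are not reported here. No test was made, because each biological replicate has 1 list. Single promoters exclude 1231 genes outside pairs that have another coding start within 1 kb. Alternatives changed the flank, the distance, the peak and overlap rules, the lists, the hotspots counted and the single promoters compared. Sex chromosomes were not analysed here.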

Additional observations from a re-analysis of the deposited data

How the results depend on the processing

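Across 73 combinations of a result and another setting, 49 stayed within the counting interval of the value reported, 24 moved beyond it and none reversed, and all 56 differences from single promoters stayed above 0. The share of open pairs was 95.9% by the replicate 1 list alone and 88.7% when peaks had to overlap by 75 bp. Its distance from single promoters was 51.0 points with a flank of 250 bp, 45.7 with 1000 bp, 52.6 for peaks at or above the median score of their list, 50.5 with lists of equal length, 36.8 by replicate 1 alone, 45.6 with an overlap of 75 bp and 18.5 with single promoters weighted by CpG class. The difference in percentile in replicate 1 was 4.20 with a flank of 250 bp or with crowded single promoters included, 5.20 with a flank of 1000 bp or without noncoding partners, 3.14 for peaks at or above the median and 2.57 when weighted. In replicate 2 it was 5.52 with a flank of 250 bp, and 4.19 for peaks at or above the median and when weighted. The difference in hotspot width was 261 and 172 bp when weighted, 349 and 166 bp for hotspots at the ceiling of the q value in replicates 1 and 2, and 386 bp in replicate 1 for hotspots over the midpoint or start. For the hotspot over the centre of the strongest shared peak, a setting chosen after seeing the data, it was 292 bp in replicate 1. The weighting equalises CpG class by construction, and the causes of the other moves were not tested. No paired analysis was possible because each biological replicate has 1 pooled list and no result comes from a test. Leaving out a library was not possible for the same reason. Unknown depth limits every share: a promoter without a peak was not detectably open in these lists, which does not show it closed.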

Other observations

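Sgce/Peg10, a pair of imprinted genes expressed from the paternal copy, had 2 peaks in replicate 1, the stronger with a score of 61, and none in replicate 2. Its CpG ratio was 0.678. It was picked after its values were seen, and imprinted genes were not counted as a list.

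Between the extremes of the immune pairs, Plgrkt/Cd274, with the gene of the immune checkpoint ligand PD-L1, scored 141 in replicate 1 and 60 in replicate 2 in hotspots of 809 and 498 bp. Ifit1bl2/Ifit1, with an interferon-induced gene, had a CpG ratio of 0.118 and was open with scores of 89 and 21. S100a1/S100a13 scored 145 and 61. All 3 were chosen after their values were seen.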
